A study of Mus musculus with 2 samples.

Results

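The mitochondrial carriers (the Slc25a family) and the porins (Vdac1, Vdac2 and Vdac3) were examined in 2 long-read RNA-seq libraries of mouse gastrocnemius, a calf muscle. Members were taken by gene name from both transcript tables, and the reads of all transcript models of a gene were summed. The GENCODE M21 annotation holds 50 such genes, 47 Slc25a genes and 3 porins, among 15324 annotated mouse genes with a read in either library. Of the 50 members, 35 had a read in replicate 1, 40 had a read in replicate 2, and 10 had none in either. The members were set by gene name and not by a cut on their measured values, but with earlier results of these data known. Both libraries came from females of the B6CASTF1/J strain, the first-generation cross of C57BL/6J and CAST/EiJ mice, aged 36 days, and were made from 2 µg of total RNA with Lexogen and Ambion mix 1 spike-ins. Both parental alleles of a gene were counted together. The labels give the libraries different female numbers and tissue samples under 1 donor entry, and put them in 1 group. There is thus no comparison of conditions: each test below sets replicate 1 against replicate 2, and its p-value measures counting error between these 2 samples.

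Carriers of the Slc25a family move nucleotides, phosphate, amino acids, cofactors and metal ions across the inner mitochondrial membrane, which is otherwise tight to them. Porins form the channels through which the same solutes cross the outer membrane. In muscle the pair is best known for energy supply: adenine nucleotide carriers exchange matrix ATP for cytosolic ADP, and the phosphate carrier brings in the phosphate that ATP synthase needs.

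The libraries stood apart before any carrier was considered. Replicate 1 held 797105 reads in annotated mouse genes and replicate 2 held 1602272, a depth ratio of 2.01. The 9 fast-fibre markers, the genes of the main fibre class of this muscle, took 23.2% and 14.9% of these reads, of which the calcium pump Atp2a1 alone took 11.0% and 3.02%. The other 8 took 12.2% and 11.9% together, but the fast myosins among them went both ways. Levels are given in CPM, counts scaled to the library's reads in annotated mouse genes. Myh4, the most abundant fast myosin, was higher in replicate 1 (18180 and 10939 CPM), by less than 2-fold. Myh1 (80.3 and 758 CPM) and Myh2 (0 and 346 CPM) were lower in replicate 1. The 11 slow-fibre markers, among them the slow myosin Myh7, took 0.00477% of reads in replicate 1 (38 reads) and 0.958% in replicate 2 (15354 reads), and 5 of the 11 were at 0 in replicate 1. Of the other lists, blood genes took 0.256% and 0.0554%, adipocyte genes 0.0655% and 0.0319%, Schwann cell genes 0.0358% and 0.0157%, and endothelial genes 0.00690% and 0.00693%. The adipocyte genes went both ways: Fabp4 was lower in replicate 1 (193 and 240 CPM), while Cfd, Adipoq, Retn and Cidec were higher in it. Of the 2 brown fat genes, the carrier Ucp1 was at 0 in both, and Cidea had 0 reads in replicate 1 and 17 in replicate 2. In bulk muscle, fewer cells of a type and less RNA per cell cannot be told apart.

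Slc25a3, the phosphate carrier, has a pair of exclusive exons, 3A and 3B, of which a transcript carries one. As background, the 3A form is known as the heart and skeletal muscle form and the 3B form as the widespread one. Both lie on the minus strand of chromosome 10 in the GRCm38 build, exon 3A at chr10:91122207-91122331 (125 bases) and exon 3B at chr10:91121922-91122043 (122 bases). Both are wholly coding, and their lengths differ by 3 bases. The sequences of the pair, from the GENCODE M21 transcripts Slc25a3-206 (3A) and Slc25a3-201 (3B), are shown because the choice between them is the clearest exon choice among the members. Capitals mark the bases that differ when the exons are aligned to each other.
exon 3A: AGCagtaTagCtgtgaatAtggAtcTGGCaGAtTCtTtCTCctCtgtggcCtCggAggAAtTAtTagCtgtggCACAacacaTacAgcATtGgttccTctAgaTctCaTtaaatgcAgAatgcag
exon 3B: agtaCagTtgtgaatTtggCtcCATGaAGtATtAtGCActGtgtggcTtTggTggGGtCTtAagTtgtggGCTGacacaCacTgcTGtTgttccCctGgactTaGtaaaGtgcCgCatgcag
The exons were identical at 80 of the 126 alignment columns, or 63.5%. The differing bases run through the whole length of both exons, so long reads can be placed in one or the other.

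Nearly every Slc25a3 read that spanned exons 2 to 4 carried exon 3A. Of the reads that spanned exons 2 to 4 and held exactly one of the pair, 339 of 345 in replicate 1 had exon 3A, or 98.3% (exact Clopper-Pearson 95% interval 96.3 to 99.4%). In replicate 2, 1214 of 1238 had it, or 98.1% (97.1 to 98.8%). The intervals of the libraries overlap almost wholly, and Fisher's exact test, two-sided, gave p = 1. Exon 3B was thus held by 6 and 24 reads. A single read in each library held both exons, and none of 346 and none of 1239 reads skipped both, which allows shares of up to 0.867% and 0.242%. The leading transcript in both libraries was Slc25a3-206, the 3A form, with 313 of 380 reads in replicate 1 and 1068 of 1483 in replicate 2. A second difference lay in the 5′ untranslated region. There 13 of 346 reads (3.76%) in replicate 1 and 89 of 1239 (7.18%) in replicate 2 held intron 1 sequence joined to exon 2. Models that keep all of intron 1 and models that start inside it were counted together in this share. Fisher's exact test of this share, two-sided and unadjusted, gave p = 0.0249, and the feature was singled out after its values were seen.

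**Figure D1:**
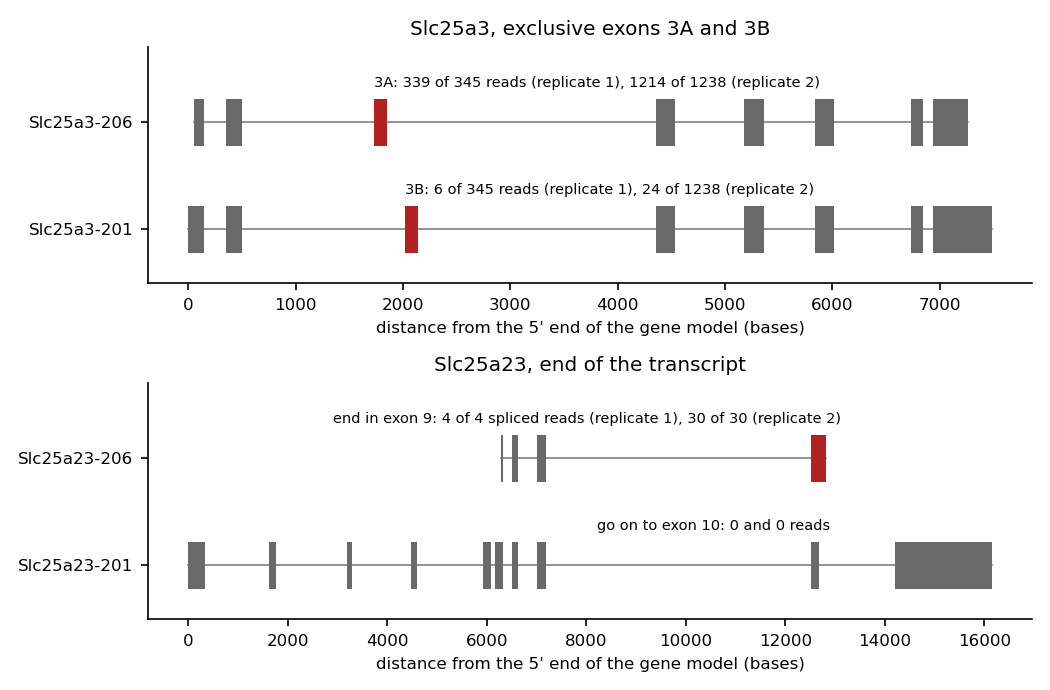
Exon maps of 2 annotated transcripts each of Slc25a3 and Slc25a23, drawn to scale as distance from the 5′ end of the gene model in bases, with exons as boxes, the exclusive exons of Slc25a3 and the last exon of Slc25a23-206 in red, and spliced reads per library written above. Exon 3A held 339 of 345 and 1214 of 1238 reads, and no spliced Slc25a23 read went on to exon 10.

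Vdac3 is the third porin isoform, and a small exon of 3 bases that adds an internal methionine codon has been described for it. No deposited Vdac3 model in either library held an exon of 3 bases: 0 of 333 reads joining exons 3 and 4 in replicate 1 and 0 of 1122 in replicate 2, which allows shares of up to 0.901% and 0.267% in the deposited models. These limits hold for the models as placed by the authors' alignment and not for the RNA, since where that alignment put the bases of so short an exon is not known. What varied there was the end of exon 3, on the minus strand of mouse chromosome 8. Vdac3-201 annotates exon 3 with 50 bases (chr8:22587553-22587602) and Vdac3-202 with 53 (chr8:22587550-22587602). The GENCODE M21 sequences of both annotated forms are shown because most reads matched neither, with capitals for the bases added in the longer form.
Vdac3 exon 3, 201: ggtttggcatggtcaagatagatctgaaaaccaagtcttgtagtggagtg
Vdac3 exon 3, 202: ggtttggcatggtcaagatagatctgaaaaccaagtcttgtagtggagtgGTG
In the deposited models, exon 3 was 54 bases long, 4 more than in Vdac3-201, in 309 of 333 reads of replicate 1, or 92.8% (exact Clopper-Pearson 95% interval 89.5 to 95.3%). In replicate 2 it was 54 bases long in 1063 of 1122 reads, or 94.7% (93.3 to 96.0%). The remaining 24 and 59 reads ended exon 3 as Vdac3-201 does, and none ended it as Vdac3-202 does. The difference between the libraries gave p = 0.18 by Fisher's exact test, two-sided. An addition of 4 bases is not a multiple of 3. Which bases the reads carried at this junction was not analysed here, so the reads with the longer exon 3 may hold the small exon or not. Because of this site the leading Vdac3 model was an unannotated one of 9 exons in both libraries, with 302 of 348 and 1017 of 1310 reads.

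As whole exons held or skipped, the exons of the carriers and porins hardly varied. Inclusion, the share of informative reads that hold an internal exon rather than join its neighbours, could be tested at 91 exons of 13 members with at least 20 informative reads in each library. None of the 91 was called between the libraries (adjusted p under 0.05 and at least 10 percentage points), against 0.0484% of all 18578 exons tested. None reached an unadjusted p under 0.05, and the smallest was 0.0698. Of the 91 exons, 85 were included in over 95% of informative reads in both libraries, 77 of them in all such reads, and the other 6 in under 6%. Only a read joining the neighbours counted against an exon, so an exclusive exon or another exon end did not lower its inclusion. Exon 3A of Slc25a3 and the 50-base and 54-base forms of Vdac3 exon 3 are thus among those at 100%. No member exon had a mean inclusion between 10% and 90%, a range that held 400, or 2.15%, of all exons tested. The rare exon with the highest mean inclusion among these 6 was a 36-base exon of Slc25a25, the ATP-Mg/phosphate carrier, held by 3 of 57 reads in replicate 1 and 0 of 80 in replicate 2. Splice sites gave the same picture, over 160 sites with at least 100 reads in 11 members. Only that of Vdac3 described above joined its main partner in under 95% of reads. The lowest site outside Vdac3 stood at 96.1%.

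Slc25a4, the adenine nucleotide carrier of heart and muscle (ENSMUSG00000031633.4, chr8:46206797-46211284, minus strand), was by far the most abundant member. It had 7965 reads in replicate 1 and 32090 in replicate 2, or 9992 and 20028 CPM. One long read stands for 1 cDNA molecule, so reads were not divided by transcript length. Its mean of 15010 ± 7096 CPM (SD, n = 2) was 21.4 times that of the next member, and it ranked as gene 10 and gene 8 of all annotated mouse genes. Slc25a4 supplied 78.7% and 82.4% of all carrier and porin reads. The members together took 1.27% of mouse reads in replicate 1 (10117 reads) and 2.43% in replicate 2 (38940 reads). The order below Slc25a4 was Slc25a3, Vdac3, Slc25a5, Vdac1, Slc25a11, Vdac2 and Slc25a12, at means of 701 ± 317, 627 ± 269, 417 ± 274, 416 ± 38.8, 330 ± 90.8, 241 ± 31.0 and 226 ± 19.5 CPM (SD, n = 2). Each neighbouring pair in this order differed by less than the larger SD of the pair.

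**Figure D2:**
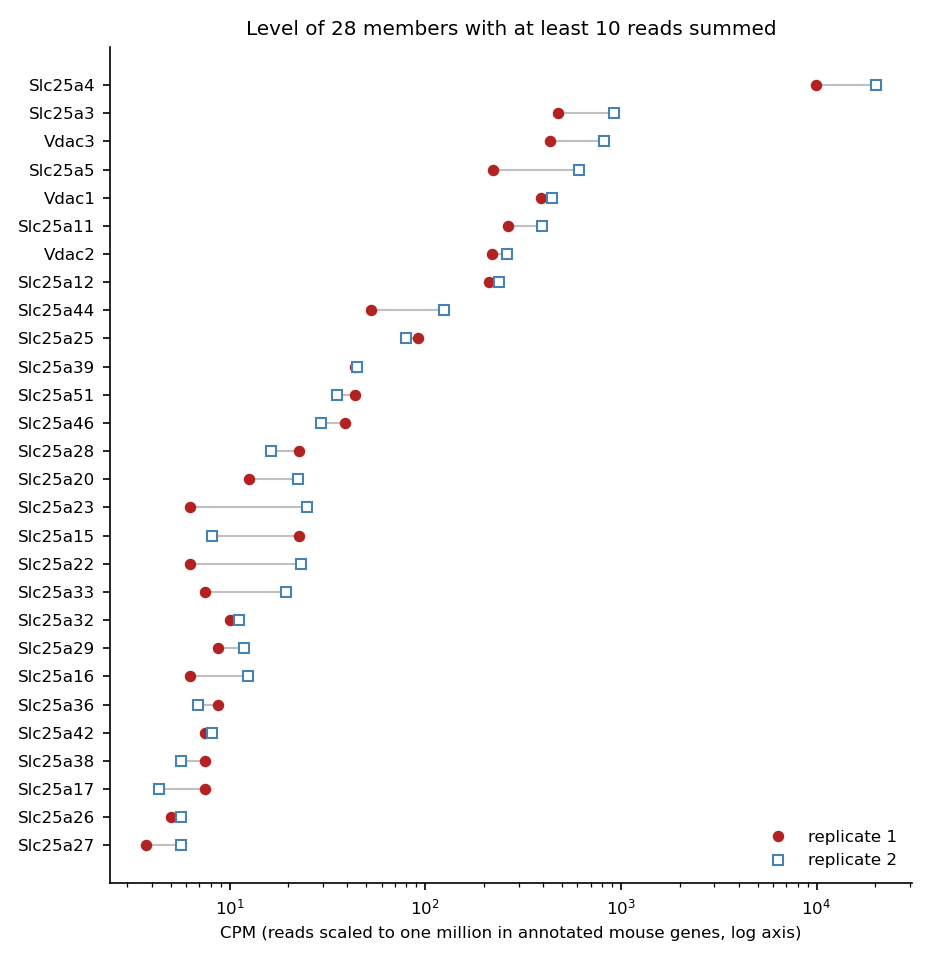
Level in CPM on a log axis of 28 members with at least 10 reads summed, ordered by mean, with a filled circle for replicate 1 and an open square for replicate 2. Slc25a4, at 9992 and 20028 CPM, lies far above the next member, Slc25a3, at 477 and 926 CPM.

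Of the 3 adenine nucleotide carriers, the muscle form held nearly all reads. Slc25a4 made up 97.8% (95% interval 97.5 to 98.1%) of their reads in replicate 1 and 97.0% (96.9 to 97.2%) in replicate 2. Slc25a5, the form found in most dividing cells, had 178 and 979 reads, or 223 and 611 CPM. Slc25a31, known as the germ-cell form, had no read in either library, which allows up to 3.76 and 1.87 CPM. Among reads of models with at least 2 exons, the Slc25a4 share was 99.2% in both libraries, an alternative chosen after seeing the data.

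The porins were more even. Vdac3 supplied 41.8% (38.4 to 45.2%) of porin reads in replicate 1 and 53.6% (51.6 to 55.6%) in replicate 2. Vdac1, the isoform usually described as the main one, supplied 37.2% (33.9 to 40.6%) and 29.1% (27.3 to 30.9%), and Vdac2, the isoform known for holding the cell-death protein Bak, 21.01% (18.3 to 23.9%) and 17.3% (15.8 to 18.8%). The order Vdac3, Vdac1, Vdac2 was the same in both libraries, but in replicate 1 the intervals of Vdac3 and Vdac1 overlapped. In reads these were 348 and 1310 for Vdac3, 310 and 711 for Vdac1, and 175 and 422 for Vdac2. Near-identical copies bear on such counts: 53.8% of the 25-base words of Vdac3 transcripts, and 72.2% of those of Slc25a5, also occur in annotated pseudogene copies. The deposited tables gave the copies of either gene 1 read in all, and how reads were shared between parent and copies was not tested.

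Carriers of the malate-aspartate shuttle, which moves the reducing power of cytosolic NADH into mitochondria, came next. Slc25a11, the oxoglutarate/malate carrier, had 212 and 632 reads, or 266 and 394 CPM. Slc25a12, the calcium-regulated aspartate/glutamate carrier of excitable tissues (aralar), had 169 and 384 reads, or 212 and 240 CPM. Its liver-type counterpart Slc25a13 (citrin) had none, so that Slc25a12 made up all 169 and all 384 reads of the pair. Slc25a18, a glutamate carrier, was also at 0, while the other glutamate carrier, Slc25a22, had 5 and 37 reads.

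Calcium-regulated ATP-Mg/phosphate carriers were represented by Slc25a25, with 73 and 128 reads (91.6 and 79.9 CPM), and Slc25a23, with 5 and 40. Slc25a24 had a single read, in replicate 2, and Slc25a41 and Slc25a54 had none. Slc25a44, a carrier of branched-chain amino acids, had 42 and 201 reads (52.7 and 125 CPM). Other carriers of this class were thinner: Slc25a20, the carnitine/acylcarnitine carrier of fat oxidation, had 10 and 36 reads, Slc25a29, a carrier of basic amino acids, 7 and 19, and Slc25a15, the ornithine carrier of the urea cycle, 18 and 13. Slc25a38, a glycine carrier, had 6 and 9 reads, and Slc25a2 had none.

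All 9 carriers of cofactors and nucleotides were read in both libraries, at low levels. Slc25a51, the NAD carrier, had 35 and 57 reads (43.9 and 35.6 CPM). Slc25a33, a pyrimidine nucleotide carrier, had 6 and 31 reads, and another 6 had between 4 and 20 reads in a library. Among the 4 carriers of iron and glutathione, Slc25a39, the glutathione carrier, had 35 and 72 reads (43.9 and 44.9 CPM). Slc25a28 (mitoferrin 2) had 18 and 26 reads, against 5 and 3 for Slc25a37 (mitoferrin 1), the mitoferrin of red cell precursors. Slc25a40, the counterpart of Slc25a39, had 3 and 2. Slc25a46, which sits in the outer membrane and acts in mitochondrial shape, had 31 and 47 reads (38.9 and 29.3 CPM).

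The remaining members were at the edge of detection. Slc25a1, the citrate carrier of fat synthesis, had 5 and 4 reads, and Slc25a10, the dicarboxylate carrier, 4 and 3. Of the carriers close to uncoupling proteins, Slc25a27 had 3 and 9 reads, Slc25a14 had 0 and 8, and Slc25a30 had 0 and 1. Slc25a34, Slc25a35, Slc25a47 and Slc25a53 had between 0 and 9 reads each. The 10 members without a read were Slc25a2, Slc25a13, Slc25a18, Slc25a21, Slc25a31, Slc25a41, Slc25a43, Slc25a45, Slc25a48 and Slc25a54. In all, 29 members had at least 10 reads summed and entered the test below, and 11 were read but not tested.

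Many carrier reads were placed in models of a single exon. These made up 28.4% of member reads in replicate 1 and 39.5% in replicate 2, against 9.18% and 16.2% of the reads of all annotated mouse genes. In both libraries 99.9% of the members' single-exon reads were in models that overlapped the last exon of an annotated protein-coding transcript. An overlap of any length counted, also that of the 5590-base model of Slc25a22. The share differed widely among members and was lower in replicate 1 in 10 of the 12 most abundant ones, the exceptions being Vdac2 and Slc25a44. Slc25a4 had 2502 and 13472 such reads, or 31.4% and 42.0% of its reads. Slc25a5 had 134 of 178 and 828 of 979 reads in them, and Slc25a44 had 39 of 42 and 186 of 201. Vdac3, by contrast, had 9 of 348 and 169 of 1310. The deposited single-exon model of Slc25a44 spanned 2 bases in both libraries and that of Slc25a5 spanned 1 base in replicate 2, so the ends of such models do not give the ends of the reads. How these reads arose was not tested.

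**Figure D3:**
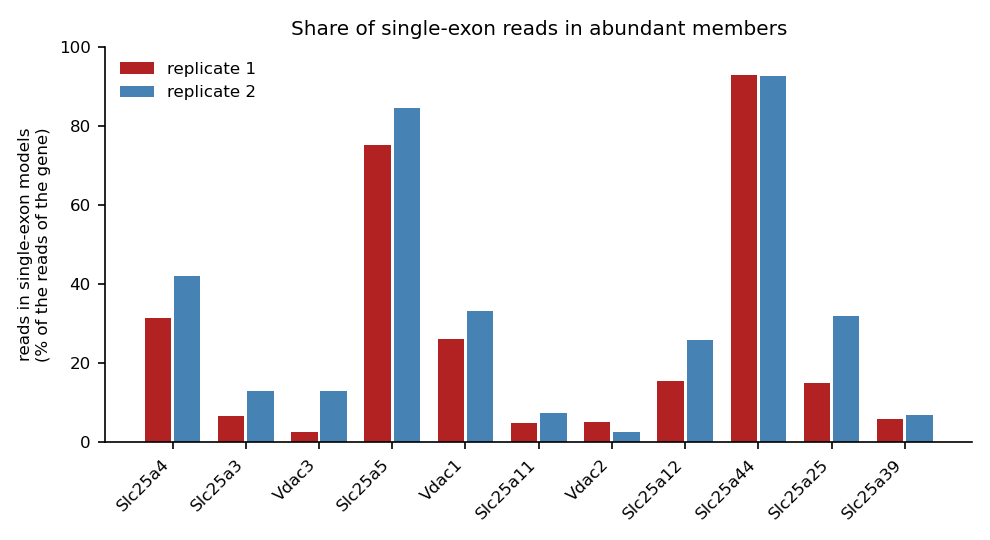
Share of each gene's reads in single-exon models, in percent, for 11 of the 12 members with the highest mean CPM, with the bar of replicate 1 left of that of replicate 2. Slc25a44 and Slc25a5 stand highest, with 39 of 42 and 134 of 178 reads in replicate 1.

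Between the libraries, 5 of the 29 tested members were lower in replicate 1 and 1 was higher, where a call took an adjusted p under 0.05 with CPM values 2-fold or more apart. Over all 8096 genes tested by the same rule, 5.78% were lower, 5.47% were higher, and 11.3% were called in either direction. Of the 29 members 21 had a ratio of replicate 1 over replicate 2 below 1 (72.4%), as had 51.5% of all genes tested. The members' median log2 ratio was -0.26, beside -0.06 over all genes tested. The members called lower were Slc25a4, Slc25a5, Slc25a44, Slc25a23 and Slc25a22, and Slc25a15 was called higher.

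Slc25a4 was at 9992 CPM in replicate 1, against 20028 CPM in replicate 2, a ratio of 0.499 (95% interval 0.487 to 0.511) that sat at the edge of the 2-fold rule. With reads of multi-exon models only, 5463 and 18618, the ratio was 0.544 (0.528 to 0.561), and it no longer met that rule. Ratios from multi-exon models were scaled to all reads of such models in annotated mouse genes, 723938 and 1341953. Slc25a5 had a ratio of 0.365 (0.310 to 0.429; Fisher's exact test with Benjamini-Hochberg adjustment, adjusted p = 5.3e-41), but 0.540 (0.377 to 0.760) in its 44 and 151 reads of multi-exon models. Slc25a44 had a ratio of 0.420 (0.294 to 0.588; Fisher's exact test with Benjamini-Hochberg adjustment, adjusted p = 6.58e-07), but only 3 and 15 of its reads were in multi-exon models, too few for a call (0.371, interval 0.0688 to 1.31). The calls of these 3 genes thus needed the single-exon reads.

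The remaining calls rested on few reads. Slc25a23, with 5 and 40 reads, had a ratio of 0.251 (0.0774 to 0.637) and an adjusted p of 0.00908 by Fisher's exact test with Benjamini-Hochberg adjustment. Slc25a22, with 5 and 37, had 0.272 (0.0833 to 0.693), with an adjusted p of 0.0173 by the same test with that adjustment. Slc25a15, with 18 and 13 reads, had 2.78 (1.29 to 6.18) and an adjusted p of 0.0347 likewise from Fisher's exact test. In multi-exon models alone Slc25a23 was still called, while the adjusted p of Fisher's exact test was 0.0701 for Slc25a22 and 0.0574 for Slc25a15. The slow-fibre, blood and adipocyte gene levels given above differ between the same libraries, and their part in these differences was not tested.

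Several abundant members differed beyond counting error without reaching 2-fold. The ratio was 0.515 (0.459 to 0.577) for Slc25a3, 0.534 (0.473 to 0.601) for Vdac3 and 0.674 (0.574 to 0.789) for Slc25a11, whose adjusted p-values by Fisher's exact test with Benjamini-Hochberg adjustment were 1.1e-32, 2.49e-26 and 5.76e-06. Unlike Slc25a4 and Slc25a5, Slc25a3 and Vdac3 had ratios of 0.509 and 0.551 in multi-exon models, close to those over all reads. Vdac1, Vdac2, Slc25a12, Slc25a25 and Slc25a39 had ratios of 0.876, 0.834, 0.885, 1.15 and 0.977. Their adjusted p-values by Fisher's exact test with Benjamini-Hochberg adjustment ran between 0.155 and 1. Over all reads the 95% interval of Vdac2, 0.695 to 0.997, nevertheless left out 1. In multi-exon models the ratios of the same genes were 0.892, 0.749, 0.930, 1.32 and 0.913. Of these, only that of Vdac2 had an interval that left out 1 (0.621 to 0.899). Over the 29 tested members the 95% interval of the ratio over all reads lay below 1 for 10, above 1 for 1, and held 1 for 18.

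**Figure D4:**
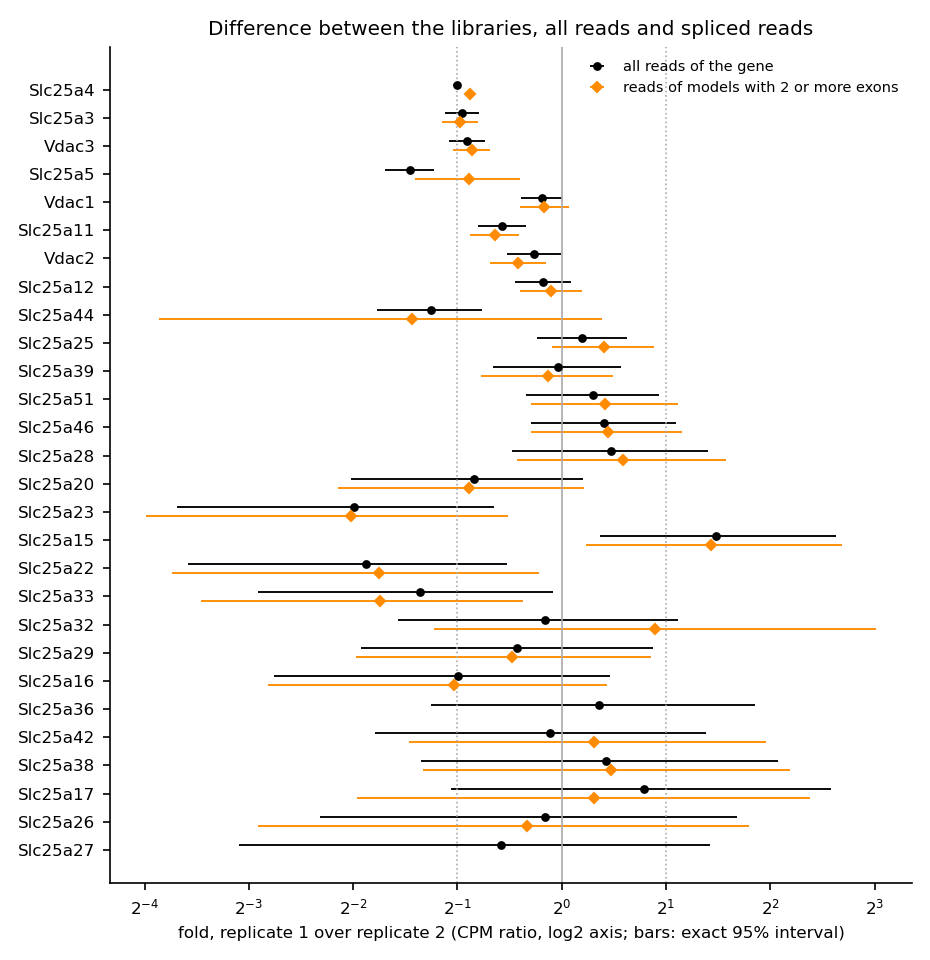
CPM ratio of replicate 1 over replicate 2 on a log2 axis for 28 of the 29 tested members, from all reads (black circles) and from reads of multi-exon models (orange diamonds, absent where too few), with exact 95% intervals as bars and dotted lines at a 2-fold difference. Slc25a4 and Slc25a5 lie at 0.544 and 0.540 in multi-exon models, beside 0.499 and 0.365 over all reads.

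In all 14 members with at least 20 reads in each library, the leading model was the same one, and for 11 of them it was an annotated transcript. Among them were Slc25a11-201 with 188 of 212 and 551 of 632 reads, Slc25a39-201 with 31 of 35 and 60 of 72, and Vdac2-201 with 154 of 175 and 365 of 422. Slc25a51-201, Slc25a46-201, Slc25a25-203, Slc25a4-201, Slc25a12-206 and Vdac1-202 led their genes as well. The exceptions were Vdac3, with the unannotated model described above, and Slc25a5 and Slc25a44, led by single-exon models. Below 20 reads the leading model differed in Slc25a10, Slc25a17, Slc25a22, Slc25a27, Slc25a32, Slc25a37, Slc25a40 and Slc25a42. Slc25a22 was one of these, led in replicate 2 by Slc25a22-221, an annotated single-exon model with a retained intron that held 12 of its 37 reads. For Slc25a40 (1 of 3 and 1 of 2 reads) and for Slc25a10 in replicate 2 (1 of 3), the lead was a tie of single reads. No difference in leading model is shown for these genes. Last exons were as uniform: of 27 members with at least 10 spliced reads, 25 used one last exon in over 90% of reads, the exceptions being Slc25a32 and Slc25a42.

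Slc25a23 stood out by where it ended, a feature chosen after its values were seen. The gene, a calcium-regulated ATP-Mg/phosphate carrier on the minus strand of chromosome 17, has 10 exons in Slc25a23-201, with a last exon of 1953 bases (chr17:57043711-57045663). The short transcript Slc25a23-206 instead ends in a longer exon 9 of 286 bases (chr17:57047051-57047336), 135 bases past the splice site used by Slc25a23-201. All spliced reads that reached exon 9 ended there, 4 of 4 in replicate 1 (exact Clopper-Pearson 95% interval 39.8 to 100%) and 30 of 30 in replicate 2 (88.4 to 100%). None was spliced on to exon 10, and 0 and 3 single-exon reads touched that exon. The annotated ends lie 3340 bases apart. Deposited models carry the annotated end of Slc25a23-206, so the exact end of each read is not known. The poly(A) signal letters AATAAA were searched on the transcript strand in the last 50 bases: Slc25a23-201 holds them and Slc25a23-206 does not, beside 40.6% of 58787 annotated protein-coding transcripts. The variant ATTAAA, found in 11.9% of these windows, was absent from that of Slc25a23-206 as well.

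Opposite-strand loci overlapping the members had reads of their own, which the authors' tables keep apart from the genes. They numbered 7 and 67 at Vdac1, 7 and 44 at Vdac3, 3 and 41 at Slc25a12, 4 and 35 at Slc25a46 and 2 and 17 at Slc25a20. These reads enter no value given above.

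Other genes of mitochondrial transport were read from a list of 45: further carriers, inner-membrane transporters, import pores and partners of porins. Of 38 tested, 7 were lower in replicate 1 and 1 was higher, beside 5.78% and 5.47% of all genes tested. Their median log2 ratio was -0.52, beside -0.06 over all genes tested. Those lower were Mpc1 and Mpc2, which form the pyruvate carrier, with 217 against 517 CPM and 275 against 574 CPM, the import genes Tomm5, Tomm20 and Timm17a, the mitochondrial creatine kinase Ckmt2, with 472 against 1429 CPM, and the matrix cyclophilin Ppif. Each of these 7 was also called lower with reads of multi-exon models only. The uncoupling protein Ucp3 of muscle had 84 and 129 reads, or 105 and 80.5 CPM, with an adjusted p of 0.187 by Fisher's exact test with Benjamini-Hochberg adjustment. Of its reads, 69 and 71 were in multi-exon models, beside 723938 and 1341953 such reads in all annotated mouse genes. In multi-exon reads Ucp3 thus stood further above replicate 2 in replicate 1 than over all reads.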

How the data were processed

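Per the README beside the deposited files, the authors aligned the reads to the mm10 genome with the GENCODE M21 annotation, and each deposited table gives whole-number read counts per transcript model. The models carry TALON's classes, per the file headers: Known, incomplete (ISM), in catalogue (NIC), not in catalogue (NNC) and Genomic. The aligner and its filters are not stated in the sources used.

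Model counts were added up per gene and scaled to the 797105 and 1602272 reads in annotated mouse genes. Where a class of models was left out, counts were scaled to the reads of the models kept. One read is worth 1.25 and 0.624 CPM, and intervals and limits of a count of 0 (3 counts) cover counting error only. Genes with at least 10 reads summed were compared by Fisher's exact test, two-sided, with Benjamini-Hochberg adjustment over 8096 genes. Exons with at least 20 informative reads in each library were compared likewise over 18578 exons. With 1 group of 2 libraries, no count model could be fitted. TMM factors (edgeR 4.0.16), DESeq2 1.42.0 size factors and other choices of models, filter and depth were tried as alternatives. The TMM and DESeq2 factors changed only the ratios, and the p-values stayed those of the unscaled totals. Python 3.11.15, scipy 1.17.1 and R 4.3.3 were used.

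Named in full were the 12 members with the highest mean CPM, all called members, porins, adenine nucleotide carriers and Slc25a3; some items are not reported here. The members and gene lists were chosen with earlier results of these data known. Spike-ins and protein sequences were not used here. Sequences are from the GENCODE M21 transcripts.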

Additional observations from a re-analysis of the deposited data

How the results depend on the processing

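No paired analysis was possible because both libraries belong to 1 group. Of 6 members called, 5 were lower and 1 was higher in replicate 1. Without incomplete and Genomic models, 2 were called, 2 lower (Slc25a22 and Slc25a33) and 0 higher. With Known models only, 2 were called, Slc25a33 lower (1) and Slc25a15 higher. With multi-exon models only (chosen after seeing the data), 2 were called, 2 lower (Slc25a23 and Slc25a33) and 0 higher. The count called higher was 0 with no filter on low counts and 0 with replicate 2 thinned to the depth of replicate 1. Slc25a4 kept a ratio below 1 but missed 2-fold with TMM (0.517), with the total without Atp2a1 (0.544), where the median log2 ratio of all genes was 0.07 beside -0.06, and with Known models only (0.599). The uncalled ratio of Slc25a39 crossed 1 with TMM (1.01), without Atp2a1 (1.06) and with Known models only (1.05). With Known models only, those of Vdac1 (1.00003) and Slc25a12 (1.05) did too; the cause was not tested. At a 1.5-fold threshold 8 were called. Over all genes, 11.3% were called in the main comparison, 15.7% without incomplete and Genomic models, 14.7% with Known models only, 14.1% with multi-exon models only and 17.7% at 1.5-fold.

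The mean Slc25a4 share of adenine nucleotide carrier reads, 97.4%, was 99.2% under each of the 3 model choices, and 97.0 to 97.8% with 1 library left out. The mean Vdac1 share of porin reads, 33.2%, was 25.7% without incomplete and Genomic models, 51.0% with Known models only, which drop the leading Vdac3 model, and 27.3% with multi-exon models, and 29.1 to 37.2% with 1 library left out. Exon 3A was at 98.0% with Known models only, and at 98.1 to 98.3% under the other alternatives. The 54-base exon 3 of Vdac3 went to 0% with Known models only, since none of them holds it, and was 92.8 to 94.7% with 1 library left out. The members' share of all reads was 1.27 to 2.43% with 1 library left out. The 3-base exon of Vdac3 is in no deposited model, so its 0 could not vary with the choice of models and does not show that the RNA lacks it. No member exon was called under any alternative tried. Replicate 1 has the lower depth, and members with under 10 reads summed could not be compared.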
